A study of Mus musculus with 6 samples.

Results

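Brain microglia were compared with liver macrophages for the levels of their microRNAs. A miRNA entered the comparison when both arrays of microglia, of liver macrophages or of each detected it, which kept 382 of the 1247 mouse miRNAs on the array. Of the 865 others, 785 were detected on none of the 4 arrays. All cells came from wild-type male C57BL6/J mice, aged 6 weeks in the sample labels and 6 to 8 weeks in the design text, housed under specific-pathogen-free conditions and left untreated. Microglia were sorted as CD45 intermediate cells with CD11b and F4/80 on their surface and without Ly6C or Ly6G. Liver macrophages were sorted as CD45+ cells with CD11b, F4/80, CD64 and MHC class II. Colon macrophages, sorted as CD45+ and Ly6C- with CD11b, CD11c and CD64, shared the model's estimate of spread and are given beside some miRNAs to place the liver level. Each group had 2 arrays, 6 in all, and each array held RNA of a separate pool of 4 to 6 mice, so p-values measure the spread between pools and not between single mice. The gates differ between the organs, so the cell type, its organ and its gate cannot be told apart. The study was set up to find miRNAs enriched in microglia of the healthy adult brain.

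Microglia are the resident macrophages of the brain parenchyma. Kupffer cells are macrophages that line the liver sinusoids, where they take up particles and aged red cells from the blood. Both cell types arise largely before birth and renew themselves locally. Whether all the sorted liver macrophages were Kupffer cells was not tested. A miRNA is cut from a hairpin precursor, which can yield a 5p and a 3p arm. The mature strand guides Argonaute to messenger RNAs, mainly through its seed, bases 2 to 8, and lowers their stability or translation, so miRNAs with one seed tend to share targets. Many miRNAs lie in clusters that are transcribed together or inside the gene of a protein, the host gene.

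The sequences that carry the comparison are printed first, with the seed in capitals, from RefSeq on build GRCm38.p6, which held 309 of the 382 miRNAs. The first set shows miRNAs that were higher in microglia, ordered so that members with one seed stand together, and miR-181d-5p and miR-125a-5p stand with their families although they did not pass the test. miR-455 lies in the span of the collagen gene Col27a1 on the same strand, at chr4:63256867-63256888 for the 5p and chr4:63256904-63256924 for the 3p arm.
miR-455-3p: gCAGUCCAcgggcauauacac
miR-455-5p: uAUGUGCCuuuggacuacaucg
miR-181a-5p: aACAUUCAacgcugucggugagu
miR-181b-5p: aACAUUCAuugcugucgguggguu
miR-181c-5p: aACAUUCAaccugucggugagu
miR-181d-5p: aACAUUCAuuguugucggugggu
miR-99a-5p: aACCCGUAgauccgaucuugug
miR-100-5p: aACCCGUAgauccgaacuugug
miR-99b-5p: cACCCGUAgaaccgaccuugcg
miR-125b-5p: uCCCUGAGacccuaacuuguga
miR-125a-5p: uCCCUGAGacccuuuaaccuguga
miR-17-5p: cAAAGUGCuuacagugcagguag
miR-20a-5p: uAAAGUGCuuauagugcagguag
miR-20b-5p: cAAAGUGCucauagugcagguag
miR-342-3p: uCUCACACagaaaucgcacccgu

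The second set shows miRNAs that were lower in microglia. miR-511 lies on the same strand in Mrc1, the mannose receptor gene, with its 3p arm at chr2:14261051-14261072, and miR-126 lies on the same strand in Egfl7, an endothelial gene, with its 3p arm at chr2:26591402-26591423. miR-6394, in Tenm4 at chr7:96305740-96305760, is shown because it carries the seed of the miR-125 family, and miR-125a-3p because it is the partner arm of miR-125a-5p.
miR-511-3p: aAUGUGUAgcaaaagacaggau
miR-126-3p: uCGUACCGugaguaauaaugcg
miR-223-3p: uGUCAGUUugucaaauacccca
miR-370-3p: gCCUGCUGggguggaaccuggu
miR-21a-5p: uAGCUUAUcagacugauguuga
miR-221-3p: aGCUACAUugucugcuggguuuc
miR-222-3p: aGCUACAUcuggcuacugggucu
miR-6394: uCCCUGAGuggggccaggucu
miR-125a-3p: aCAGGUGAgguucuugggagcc

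The members of some families are so alike that a probe may bind more than one of them, which was not tested. Aligned from the 5′ end without gaps, miR-99a-5p and miR-100-5p differ at 1 of 22 bases, miR-181b-5p and miR-181d-5p at 1 of 23, and miR-17-5p and miR-20a-5p at 2 of 23. miR-181c-5p differs from miR-181a-5p at 11 of 22 bases in this alignment, and miR-125a-5p from miR-125b-5p at 7 of 22.

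On the microglia arrays 300 and 330 miRNAs were detected, against 386 and 389 on the liver arrays. Means were 315 ± 21.2 and 387.5 ± 2.12 miRNAs (SD, n = 2 each), a difference of -72.5 with an exact 2-sided permutation p of 0.333, the smallest p that 2 arrays against 2 can give. Detected signals stood at a median of 10.5 to 11.3 times their error, and the number of arrays limits the precision of every value. Levels are given as log2 scaled signal, in which a step of 1 is a doubling and 1.64 is the floor given to a miRNA that was not detected or lay below it. Over the 259 miRNAs detected on all 4 arrays, levels correlated across miRNAs at r = 0.966 between the microglia arrays and 0.967 between the liver arrays, and at 0.784 to 0.843 between microglia and liver arrays. The liver arrays differed from each other by a median of 0.56, against 0.26 for the microglia arrays.

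More miRNAs differed between these macrophages than did not pass the test. In limma's test 202 of the 382 passed an adjusted p of 0.05 (52.9%): 81 were higher in microglia (21.2%) and 121 lower (31.7%). Microglia and liver arrays had no overlap in level for 311 miRNAs (81.4%). In bulk RNA, fewer cells of a type and less RNA per cell cannot be told apart, and this holds for each result below. Among the 259 miRNAs detected on all 4 arrays, 62 were higher and 55 lower, with a median change of 0.06, while the median over all 382 was -0.60. Of 65 miRNAs detected on both liver arrays and neither microglia array 53 were lower in microglia. Of 18 detected on both microglia arrays and neither liver array 16 were higher. The detection rule and the floor fixed the direction of these miRNAs in advance, so both counts are descriptive only.

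Which direction held most calls depended on the scaling. After median scaling 124 were higher and 108 lower, after quantile normalization 111 were higher and 89 lower. The authors' deposited values gave 107 higher and 99 lower. With no scaling 36 were higher and 126 lower, and on the array's control probes 34 and 120. The median change of all tested miRNAs moved with it, from -0.87 on control probes to -0.06 after quantile normalization, so that small changes are to be read against that shift. Without microglia replicate 1 the test called 129 miRNAs, and without microglia replicate 2 it called 121.

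**Figure D1:**
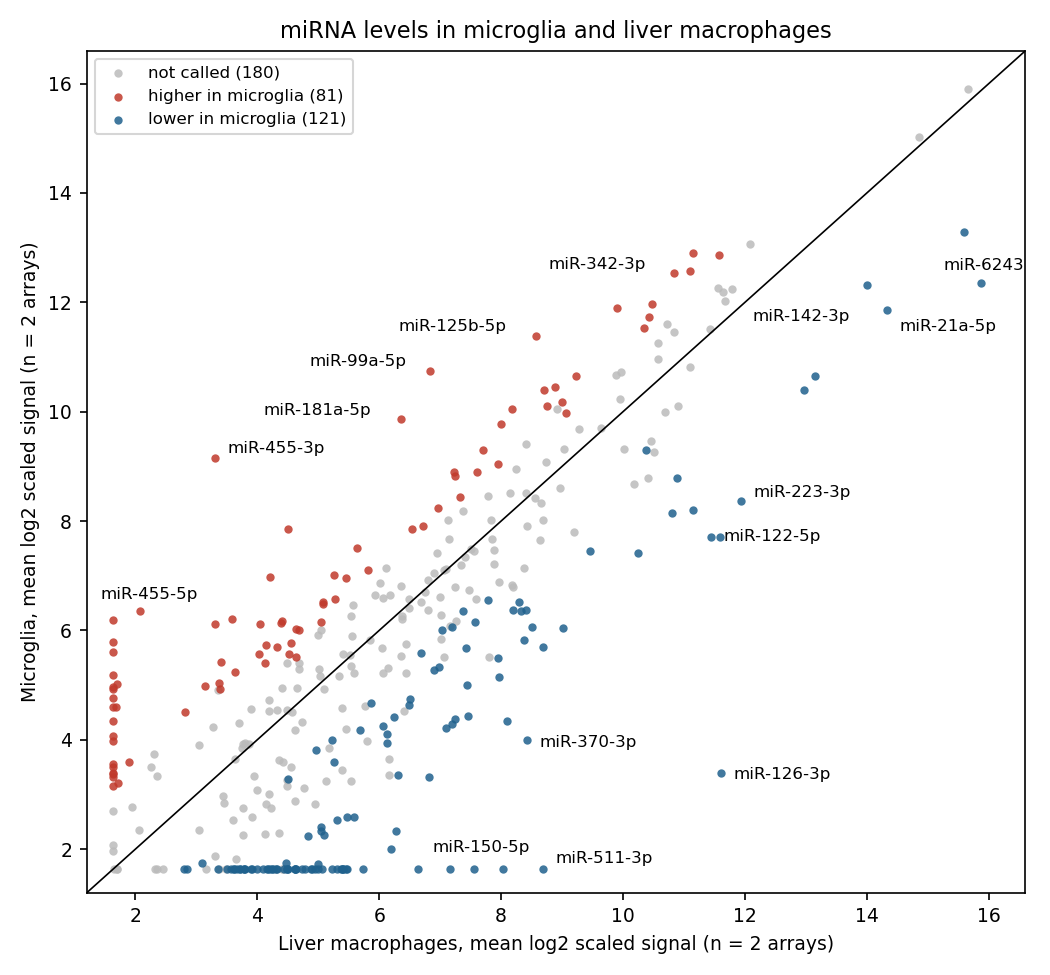
Mean log2 scaled signal in microglia (vertical axis) against liver macrophages (horizontal axis) for the 382 tested miRNAs, 2 arrays a group; points are coloured by limma's call and the line marks equal levels. The 81 higher and 121 lower miRNAs stand on either side of the line, and the points along the bottom and left edges lie at the floor of 1.64, where a group's arrays did not detect the miRNA or read it at or below the floor.

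The largest rise among miRNAs measured on all 4 arrays was that of miR-455-3p, a miRNA known from cartilage. It stood at 9.06 and 9.25 on the microglia arrays, against 3.27 and 3.33 on the liver arrays and 3.0 and 3.64 on the colon arrays. The liver levels lay within the colon range and both microglia values far above it. The change against liver was 5.86 (SE 0.31, limma adjusted p = 0.000604), or 58.0-fold. Its partner arm miR-455-5p stood at 6.06 and 6.31 in microglia and went undetected on each liver and colon array, so it was at least 23.4-fold higher in microglia than in liver macrophages (limma adjusted p = 0.000604). Both arms passed under all 5 other scalings and without each array in turn.

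The families of miR-99 and miR-125 also held large rises. miR-99a-5p, of a family known to repress mTOR, stood at 10.54 and 10.95 in microglia, against 6.90 and 6.79 in liver macrophages and 8.46 and 8.06 in colon macrophages. Its change was 3.90 (SE 0.30, limma adjusted p = 0.000933), and here the liver level was itself below the colon level (liver minus colon -1.42, limma adjusted p = 0.0464, with 40 of 396 miRNAs or 10.1% called in that comparison). miR-125b-5p, which lies in the same genomic clusters and is known to restrain apoptosis and shape myeloid cells, stood at 11.19 and 11.59 in microglia, against 8.77 and 8.37 in liver macrophages. Its change was 2.82 (SE 0.32, limma adjusted p = 0.00227). The groups did not overlap for either miRNA.

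The miR-181 family, known for tuning receptor signalling in lymphocytes, had 4 of its 5 tested members higher and none lower. Its median change was 3.34, and 21.2% of all tested miRNAs were higher. miR-181a-5p stood at 9.73 and 9.99 in microglia, against 6.30 and 6.40 in liver macrophages, a change of 3.51 (SE 0.25, limma adjusted p = 0.000933). miR-181b-5p stood at 7.60 and 8.09, against 4.68 and 4.33, a change of 3.34 (SE 0.30, limma adjusted p = 0.00127). The partner arm miR-181a-1-3p was detected in microglia alone among the 3 groups, at 5.00 and 5.36, and was at least 11.6-fold higher than in liver macrophages. The 3p name ties it to the hairpin on chromosome 1, whereas the 5p strand can come from 2 loci. miR-181c-5p rose by 2.61, but missed the threshold when either microglia array was left out (limma adjusted p = 0.071 without replicate 1 and 0.0731 without replicate 2). miR-181d-5p, detected on 1 liver array only, changed by 1.42 and did not pass (limma adjusted p = 0.116). Over the other scalings 4 to 5 members were higher, and 3 to 4 with 1 array left out.

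Some rises against liver were smaller or did not pass against colon macrophages. miR-146b-5p, an inhibitor of Toll-like receptor signalling, stood at 6.86 and 7.10 in microglia, against 3.71 and 4.71 in liver macrophages and 6.96 and 7.05 in colon macrophages. The microglia and colon arrays overlapped, and the liver arrays lay below both groups (microglia minus liver 2.77, limma adjusted p = 0.00466; liver minus colon -2.79, limma adjusted p = 0.0189). Without either microglia array the change against liver no longer passed (limma adjusted p = 0.0521 without replicate 1 and 0.0524 without replicate 2). miR-326-3p stood at 6.20 and 6.04 in microglia, against 3.09 and 3.51 in liver macrophages and 4.90 and 5.02 in colon macrophages, so that its 3 groups followed each other without overlap (microglia minus liver 2.82, liver minus colon -1.66, limma adjusted p = 0.00151 and 0.0315). miR-345-5p rose by 2.07 against liver and changed by 0.85 against colon macrophages without passing (limma adjusted p = 0.0725). miR-328-3p rose by 2.02. miR-328-3p missed the threshold without microglia replicate 1 (limma adjusted p = 0.0535).

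For a pair of these rises the liver level was next to the floor. miR-744-5p, in the span of the kinase gene Map2k4 on the same strand, stood at 4.39 and 4.78 in microglia, against 1.64 and 1.72 in liver macrophages (change 2.91, limma adjusted p = 0.00127). miR-150-3p, the minor arm of a lymphocyte miRNA, stood at 3.63 and 6.42, against 1.64 and 1.77. Its microglia arrays lay further apart than those of the other measured rises. The change of 3.32 (limma adjusted p = 0.0295) missed the threshold on control probes (0.058) and without either liver array. With a floor 4 times as high, with only the 4 arrays or without a detection filter miR-150-3p was not called higher either.

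Of the miRNAs that passed and were not detected on either liver array, 8 are named for the size of their bound. After miR-455-5p came miR-3106-5p (at least 17.7-fold), miR-203-3p (at least 15.6-fold), miR-181a-1-3p, miR-3070a-3p (at least 9.99-fold), miR-467a-3p (at least 9.78-fold), miR-190a-5p (at least 8.70-fold) and miR-467e-5p (at least 7.71-fold). miR-3106-5p at 4.63 and 6.93 and miR-3070a-3p at 3.83 and 6.10 had microglia arrays that stood apart, and limma lost both without either liver array (adjusted p from 0.0765 to 0.128). miR-190a-5p at 4.75 and 4.78 and miR-467e-5p at 4.50 and 4.67 had close arrays and were also undetected in colon macrophages. miR-203-3p, known from skin epithelium, stood at 5.62 and 5.58 in microglia and at 4.83 and 3.81 in colon macrophages. One rise stood outside the naming rule because a single liver array detected it, and was picked after its values were seen: miR-210-3p, a target of the hypoxia factor HIF, stood at 6.19 and 6.52 in microglia, against 1.64 and 2.5 in liver macrophages and 5.87 and 5.97 in colon macrophages (change 4.29, SE 0.37, limma adjusted p = 0.00127).

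**Figure D2:**
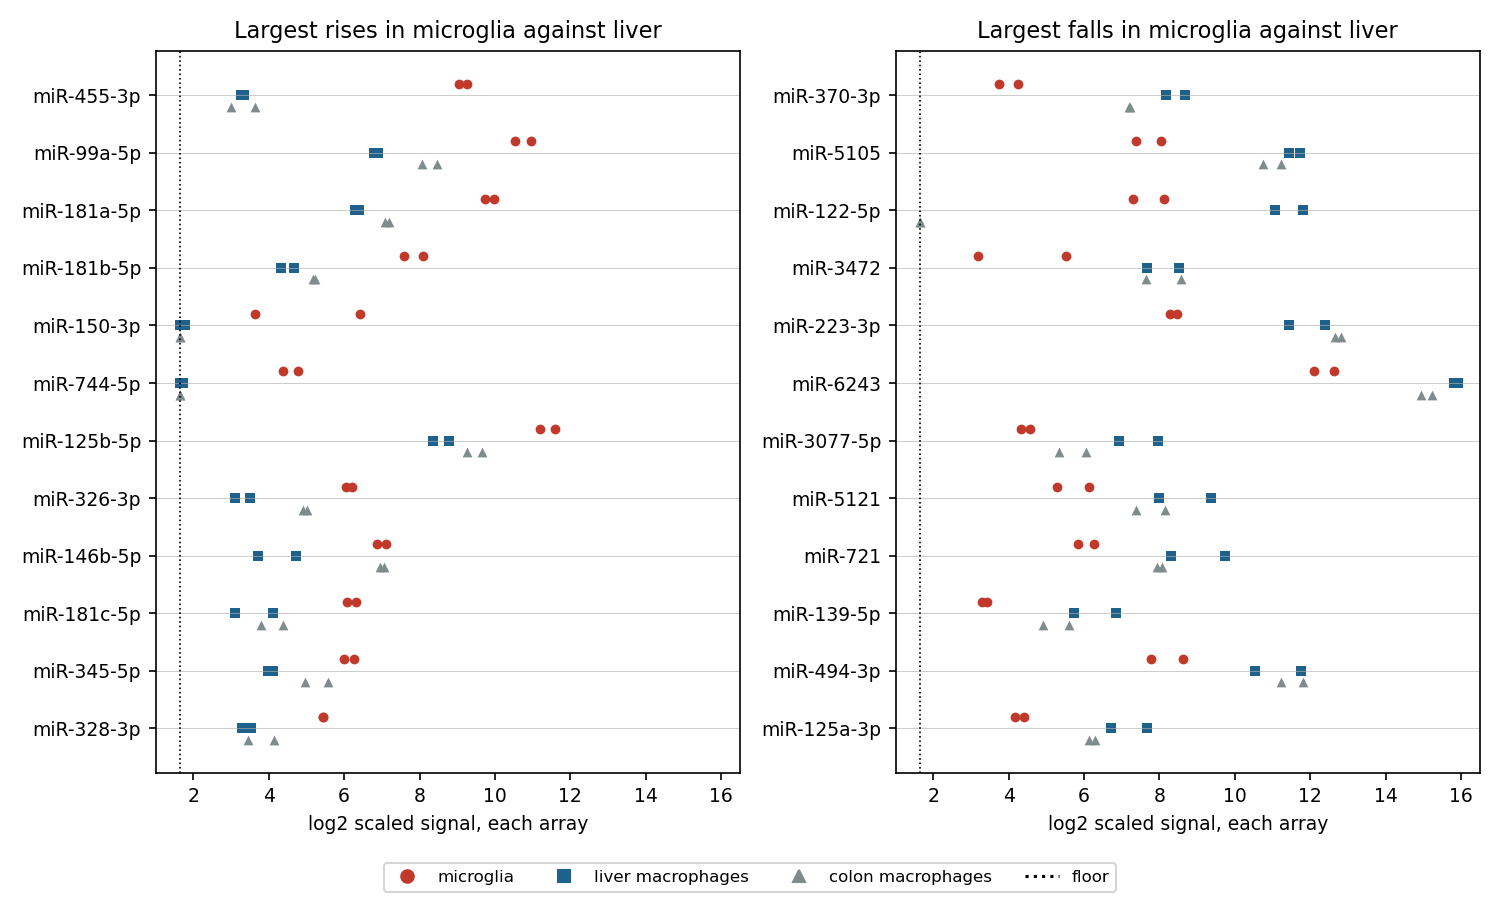
Log2 scaled signal on each array of the 12 miRNAs with the largest rise (left) and the 12 with the largest fall (right) among those detected on all 4 microglia and liver arrays and past the threshold, with the 2 arrays of each group as points and the floor as a dotted line. The microglia points lie right of the liver points on the left and left of them on the right, and for miR-146b-5p the colon points lie with the microglia points.

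In the other direction, miR-511-3p was the miRNA with the largest bound. It went undetected in microglia and stood at 8.21 and 9.16 in liver macrophages and at 9.37 and 8.85 in colon macrophages. Its level was at least 110-fold lower in microglia than in liver macrophages (limma adjusted p = 0.000677). Liver and colon arrays overlapped. Its host Mrc1 codes for the mannose receptor CD206, a scavenger receptor of tissue macrophages. miR-223-3p, a miRNA of granulocytes and monocytes that restrains granulocyte production, stood at 8.27 and 8.47 in microglia, against 11.45 and 12.40 in liver macrophages and 12.67 and 12.83 in colon macrophages. Its change of -3.56 (SE 0.39, limma adjusted p = 0.00218) came with no overlap between microglia and liver arrays. The other tested members of the myeloid list, miR-142-3p and miR-142-5p, which are expressed across blood cells, changed by 0.56 and 0.34 and did not pass (limma adjusted p = 0.247 and 0.376). miR-142-3p stood at 12.08 and 12.31 in microglia, against 11.24 and 12.04 in liver macrophages, so the pan-leukocyte marker was detected on all 4 arrays.

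Several of the miRNAs lower in microglia are known from other cell types of the liver. miR-126-5p, of endothelium, was undetected in microglia, stood at 7.80 and 7.32 in liver macrophages and 3.09 and 3.28 in colon macrophages. It was at least 50.1-fold lower in microglia (limma adjusted p = 0.000604). Its partner miR-126-3p stood at 5.15 on microglia replicate 1, was undetected on replicate 2, and stood at 11.94 and 11.27 in liver macrophages. The change of -8.21 (limma adjusted p = 0.00441) rests on the floor for 1 array, and missed the threshold without liver replicate 1 (limma adjusted p = 0.0621). miR-122-5p, which dominates the miRNAs of hepatocytes, stood at 8.11 and 7.30 in microglia, against 11.07 and 11.82 in liver macrophages (change -3.74, SE 0.42, limma adjusted p = 0.00219), and was undetected in colon macrophages. The hepatocyte miRNA was thus detected on both liver arrays and on both microglia arrays. The lymphocyte list holds the 2 arms of miR-150, of which 1 was higher and 1 lower. As given above, miR-150-3p rose by 3.32. miR-150-5p, of mature lymphocytes, was undetected in microglia and stood at 8.97 and 7.09 in liver macrophages and 2.83 and 4.22 in colon macrophages. It was at least 69.6-fold lower in microglia (limma adjusted p = 0.00277), but not past the threshold without microglia replicate 1 (limma adjusted p = 0.0545).

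The marker lists of other cell types show these differences array by array, as the summed scaled signal of the detected members. Endothelial miR-126 summed to 35.6 and 0 on the microglia arrays, against 4140 and 2630 on the liver arrays and 247 and 220 on the colon arrays, and both tested members were lower in microglia. The hepatocyte list summed to 781 and 165 in microglia, against 2390 and 4220 in liver macrophages and 2600 and 1850 in colon macrophages. As miR-122-5p was undetected in colon macrophages, the colon sums come from other members. The hepatocyte list also holds miR-192, miR-194 and miR-148a. It had 1 of 4 tested members lower in microglia than in liver macrophages and a median change of -2.40. Without microglia replicate 1 limma called 3 hepatocyte members lower. The smooth muscle and fibroblast list summed to 43.7 and 0, against 221 and 147 in liver macrophages and 759 and 496 in colon macrophages. Against liver macrophages 3 of 4 tested members were lower, among them miR-199a-5p (change -3.36), miR-199a-3p (-3.50) and miR-214-3p (-2.60). Over the other scalings 1 to 3 of them passed. With a floor 4 times as high 2 passed, and the median change went from -2.98 to -0.99. Of the 17 members on the array 13 were detected on none of the 4 arrays. No member of this list or the endothelial list was detected on microglia replicate 2. Their tested members thus entered through the liver arrays alone. For those undetected on both microglia arrays the detection rule and the floor fixed the direction in advance. Whether cells of these other types account for any change given here was not tested.

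Microglia replicate 1 carried more signal of several other cell types than replicate 2. The epithelial list summed to 672 on replicate 1 and 55.2 on replicate 2, against 15.6 and 34.4 on the liver arrays and 3360 and 2320 on the colon arrays. The erythrocyte and platelet list, in which only miR-451a was tested, summed to 715 and 122, against 172 and 158 on the liver arrays. miR-451a, a red cell miRNA, changed by 0.83 and did not pass (limma adjusted p = 0.414). Of the epithelial list miR-203-3p alone passed among 3 tested, and without microglia replicate 2, which left the array with more of this signal, limma called 5 epithelial and 2 erythrocyte members higher. The part of these cells in the results was not tested.

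Neural markers were mostly undetected. The neuronal list had 3 of 6 tested members higher, against 21.2% of all tested miRNAs, and 1 lower. Its median change was 1.10, and 17 of 24 members were detected on none of the 4 arrays. All 3 rises were undetected on both liver arrays, so the detection rule and the floor fixed their direction in advance. Over only the miRNAs detected on all 4 arrays, 2 members were tested and none was higher (median 0.32). With a floor 4 times as high none was higher and 1 was lower (median 0.06). miR-124-3p, the main neuronal miRNA, stood at 4.08 and 3.86 in microglia and was undetected in liver macrophages, at least 5.03-fold higher (limma adjusted p = 0.00576). It missed the threshold without microglia replicate 1 (limma adjusted p = 0.0571). miR-9-5p at 3.40 and 3.59 and miR-9-3p at 3.39 and 3.26, both of neural progenitors and neurons, were likewise undetected in liver macrophages, at least 3.63-fold and 3.21-fold higher. miR-132-3p, which neuronal activity and immune stimuli induce, went the other way: it was undetected on microglia replicate 1, stood at 3.53 on replicate 2 and at 5.29 and 5.88 in liver macrophages (change -3.0, limma adjusted p = 0.0172). It missed the threshold without microglia replicate 1 (0.0535), liver replicate 1 (0.0996) or liver replicate 2 (0.119). The oligodendrocyte list had 1 of 3 tested members higher, miR-219-5p (change 1.22, limma adjusted p = 0.0308). None was higher with no scaling, on control probes, with only the 4 arrays or without a detection filter. The list's median change of 0.03 became -0.52 without liver replicate 1 and 0.58 without liver replicate 2. It was 0.11 without microglia replicate 1 and -0.05 without microglia replicate 2. The neuronal list summed to 171 and 223 in microglia, against 143 and 222 in liver macrophages, and its part in the results was not tested.

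**Figure D3:**
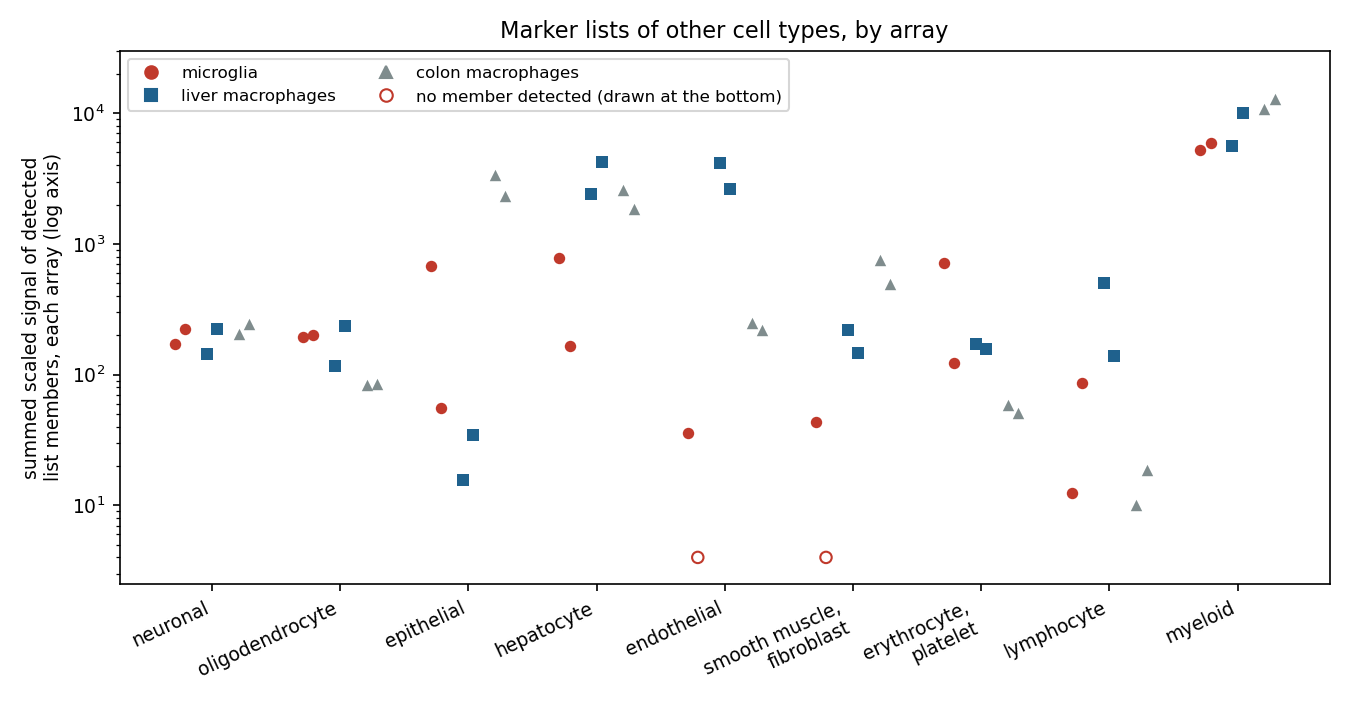
Summed scaled signal of the detected members of each marker list on each array (log axis), with the 2 arrays of microglia, liver macrophages and colon macrophages side by side, and open points at the bottom where no member was detected. The endothelial points lie at 4140 and 2630 for liver macrophages, far above 35.6 for microglia, and the epithelial and erythrocyte points of the microglia arrays lie wide apart.

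The largest fall among miRNAs measured on all 4 arrays was that of miR-370-3p, from the imprinted Dlk1-Dio3 region. It stood at 3.74 and 4.24 in microglia, against 8.68 and 8.17 in liver macrophages and 7.21 and 7.19 in colon macrophages (microglia minus liver -4.43, SE 0.32, limma adjusted p = 0.000933). Of the 91 members of a list of miRNAs from this region 83 were detected on none of the 4 arrays. Among the 6 tested members of the list, 3 were lower, against 31.7% of all tested miRNAs, and none higher. The 3 were miR-370-3p, miR-494-3p (change -2.95) and miR-134-5p (-1.23). With either microglia array left out 1 of them was lower. For miR-494-3p limma's adjusted p was 0.0624 without microglia replicate 1, 0.0866 without microglia replicate 2 and 0.0507 without liver replicate 2. The list does not hold every miRNA of the region. miR-3070a-3p and miR-3070b-3p, which are not on it, lie in the span of Rtl1 between miR-770 and miR-341. The first was higher in microglia (change 3.32) and the second changed by -1.34 without passing (limma adjusted p = 0.302).

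Many of the other large falls belonged to miRNAs with high catalogue numbers, which were registered late and of which little is known. miR-5105 stood at 8.03 and 7.38 in microglia, against 11.45 and 11.73 in liver macrophages, a change of -3.88 (SE 0.35, limma adjusted p = 0.00127). miR-6243 stood at 12.63 and 12.09, against 15.92 and 15.81, a change of -3.51 (limma adjusted p = 0.00127). It missed the threshold in the authors' value table alone among the alternatives (limma adjusted p = 0.0544). The other large falls were miR-3472 (-3.74), miR-3077-5p (-3.01), miR-721 (-2.97), miR-5121 (-2.97), miR-139-5p (-2.95) and miR-125a-3p (-2.91). Each lost the call without at least 1 microglia array: limma's adjusted p without microglia replicate 1 was 0.0731 for miR-3077-5p, 0.0987 for miR-721, 0.0789 for miR-5121, 0.0728 for miR-139-5p and 0.0521 for miR-125a-3p. Without microglia replicate 2 it was 0.0737 for miR-3472, 0.0558 for miR-3077-5p, 0.068 for miR-721, 0.108 for miR-5121 and 0.0688 for miR-139-5p. miR-3472 also lost it without either liver array (0.103 and 0.127), and miR-5121 without liver replicate 1 (0.0766).

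Among the miRNAs undetected in microglia, the named ones after miR-511-3p, miR-150-5p and miR-126-5p were miR-6392-3p (at least 37.9-fold lower), miR-3474 (26.6), miR-3091-5p (14.2), miR-3058-3p (11.8) and miR-6394 (11.7). miR-6392-3p, in the lipase gene Pnpla3, stood at 7.12 and 7.19 in liver macrophages and 6.21 and 5.94 in colon macrophages. miR-6394 stood at 5.58 and 5.33 in liver macrophages and 5.14 and 5.20 in colon macrophages. It has the seed CCCUGAG, as has miR-125b-5p, which went up, and miR-125a-5p, which changed by 0.86 and did not pass. miR-3058-3p and miR-3091-5p missed the threshold without either microglia array (limma adjusted p from 0.0824 to 0.102). Taking all miRNAs by number, 61 of 128 tested ones numbered 1000 or higher were lower in microglia (47.7%) and 10 were higher, with a median change of -1.52. Of the 254 numbered below 1000, 60 were lower (23.6%) and 71 higher (28.0%), with a median of 0.13. Restricted to miRNAs detected on all 4 arrays, 26 of 79 and 29 of 180 were lower.

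Base composition was set beside the change as a description. Across the 309 miRNAs with a RefSeq sequence, GC content correlated with the log2 change at r = -0.31 and rho = -0.36, over miRNAs that share the same 4 arrays and are not independent. Higher miRNAs had a median GC content of 45.5% (69 of 81 with a sequence) and uncalled ones 53.3% (150 of 180). Lower ones had a median of 58.1% (90 of 121). With 74.4% of them holding a sequence, their median is the least complete.

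The cluster of miR-17 to miR-92a with its paralogs, whose members promote proliferation in many tissues, had 9 of 13 tested members higher. None was lower, the median was 1.36, and 21.2% of all tested miRNAs were higher. miR-20a-5p stood at 9.90 and 10.18 in microglia, against 7.92 and 8.43 in liver macrophages, a change of 1.86 (SE 0.30, limma adjusted p = 0.00626). miR-17-5p and miR-20b-5p, which share its seed AAAGUGC, each rose by 1.67. On chromosome 14, where miR-17, miR-18a, miR-19a and miR-20a lie together, 5 of 6 tested arms were higher, with changes from 0.43 to 1.86. On chromosome 5, where miR-25, miR-93 and miR-106b lie in the replication gene Mcm7, miR-93-5p rose by 1.11 and the others changed by 0.36 and 0.72 without passing. The count of higher members went from 2 with no scaling to 12 after median scaling, and was 5 without microglia replicate 1 and 3 without microglia replicate 2.

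Counts in the families that restrain growth or matrix genes moved with the scaling and are to be read beside the 21.2% of all tested miRNAs that were higher. Of the let-7 family, which curbs growth genes in differentiated cells, 3 of 10 tested members were higher and none lower, with a median of 0.59. let-7i-5p stood at 11.64 and 12.14 in microglia, against 9.65 and 10.16 in liver macrophages (change 1.99, limma adjusted p = 0.00653), and passed under every alternative in which it was tested. let-7c-5p, a cluster partner of miR-99a, rose by 1.19, and let-7a-5p, which differs from it at 1 of 22 bases, changed by 0.34 without passing (limma adjusted p = 0.39). Over the other scalings 1 to 9 let-7 members were higher, and 1 to 3 with 1 array left out, the lowest without liver replicate 1. Of the miR-29 family, which represses collagens, 3 of 6 were higher and none lower, with miR-29a-3p up by 1.30 and miR-29b-3p by 1.49, while miR-29c-3p changed by 0.07 (limma adjusted p = 0.872). That count was 1 without either microglia array, and 1 to 4 over the other scalings. The miR-30 family had 3 of 10 higher and 1 lower. None of it was higher with no scaling, on control probes or without either microglia array, and over the other scalings 0 to 4 were.

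miR-342, in the span of Evl, a regulator of actin, had both arms higher. miR-342-3p stood at 12.26 and 12.82 in microglia, against 10.45 and 11.20 in liver macrophages, and miR-342-5p at 5.85 and 6.41, against 4.10 and 4.67. The changes were 1.71 and 1.75 (limma adjusted p = 0.0164 and 0.0118). Neither passed with no scaling or on control probes, nor without microglia replicate 2 (limma adjusted p = 0.087 and 0.0608). miR-342-3p also missed it without microglia replicate 1 (0.0571) and liver replicate 1 (0.055).

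miRNAs with the seed of miR-15 and miR-16 changed in both directions. Of 6 tested miRNAs with the seed AGCAGCA, miR-15a-5p (1.75), miR-16-5p (1.48) and miR-322-5p (1.78) rose, miR-15b-5p (-1.07) and miR-497-5p (-2.18) fell, and miR-195a-5p changed by -0.04 without passing. miR-15a and miR-16 curb the cell cycle and lie together on chromosome 14. The miR-16-5p strand can also come from chromosome 3, in the span of Smc4, where miR-15b lies. miR-497 and miR-195a share a cluster on chromosome 11, where miR-195a-3p fell as well (-2.28). With either microglia array left out none of the miR-15/16 list, which does not hold miR-322, was higher and 1 was lower, and with no scaling and on control probes none was higher and 3 were lower. The family of miR-322, miR-503, miR-542 and miR-450 on the X chromosome had 3 of 6 higher, against 21.2% of all tested miRNAs, and 1 lower. That count of higher members was 1 without microglia replicate 2, with no scaling and on control probes.

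Of the miRNAs that respond to inflammation 2 of 7 tested were higher, miR-146b-5p and miR-146a-5p. Lower were 3, miR-21a-5p, miR-221-3p and miR-222-3p, and the median was -1.26. These counts are to be read beside the 21.2% higher and 31.7% lower among all tested miRNAs. miR-21a-5p, which is induced in activated and proliferating cells, stood at 11.80 and 11.92 in microglia, against 13.50 and 15.16 in liver macrophages and 14.20 and 14.25 in colon macrophages. The groups did not overlap, but the liver arrays differed by more than 1 unit (change -2.47, SE 0.57, limma adjusted p = 0.0185). miR-222-3p was undetected in microglia and at least 8.14-fold lower there, and its seed and cluster mate miR-221-3p fell by 1.86. miR-155-5p, a promoter of macrophage activation, changed by -1.26 and did not pass (limma adjusted p = 0.074). Without either microglia array the list had none higher and 1 lower. miR-21a-5p then had limma adjusted p = 0.143 and 0.12.

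Of other lists, miR-10a-5p, which lies among the Hox genes, fell by 1.96: it stood at 6.15 and 6.56 in microglia, against 8.41 and 8.23 in liver macrophages (limma adjusted p = 0.00464). The miRNAs named miR-297, miR-466, miR-467 and miR-669, many of which come from a rodent cluster in Sfmbt2, had 4 of 15 tested members higher. None was lower, the median was -0.08, and 21.2% of all tested miRNAs were higher. RefSeq gave a position for 4 of the 15, and these lie on chromosomes 3, 11 and 13, outside that cluster. The other 11 were not placed. The rises were miR-467a-3p, miR-467e-5p, miR-466b-3p and miR-467b-5p. All were undetected on both liver arrays, so the detection rule and the floor fixed their direction in advance. Their probes may bind sister copies, which was not tested. Over only the miRNAs detected on all 4 arrays, 11 of these names were tested, with none higher and 1 lower. Without liver replicate 2, 27 miRNAs of these names were tested and 14 were lower. Of the miR-23, miR-27 and miR-24 family 1 of 7 was lower and none higher, with 6 higher after median scaling and 4 without liver replicate 2. Neither tested member of the miR-26 family and none of 3 of the family of miR-148 and miR-152 passed, whereas after median scaling 2 of each were higher. Of the family of miR-130 and miR-301 miR-130b-3p rose by 1.04 and miR-721, which has its seed, fell. miR-34a-5p, a target of p53, rose by 1.26 and was the one member of its list tested. Neither of these rises passed with no scaling, on control probes, with the higher floor, with only the 4 arrays, with the replicate block or without either microglia array, and miR-34a-5p missed the threshold without liver replicate 1 as well.

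**Figure D4:**
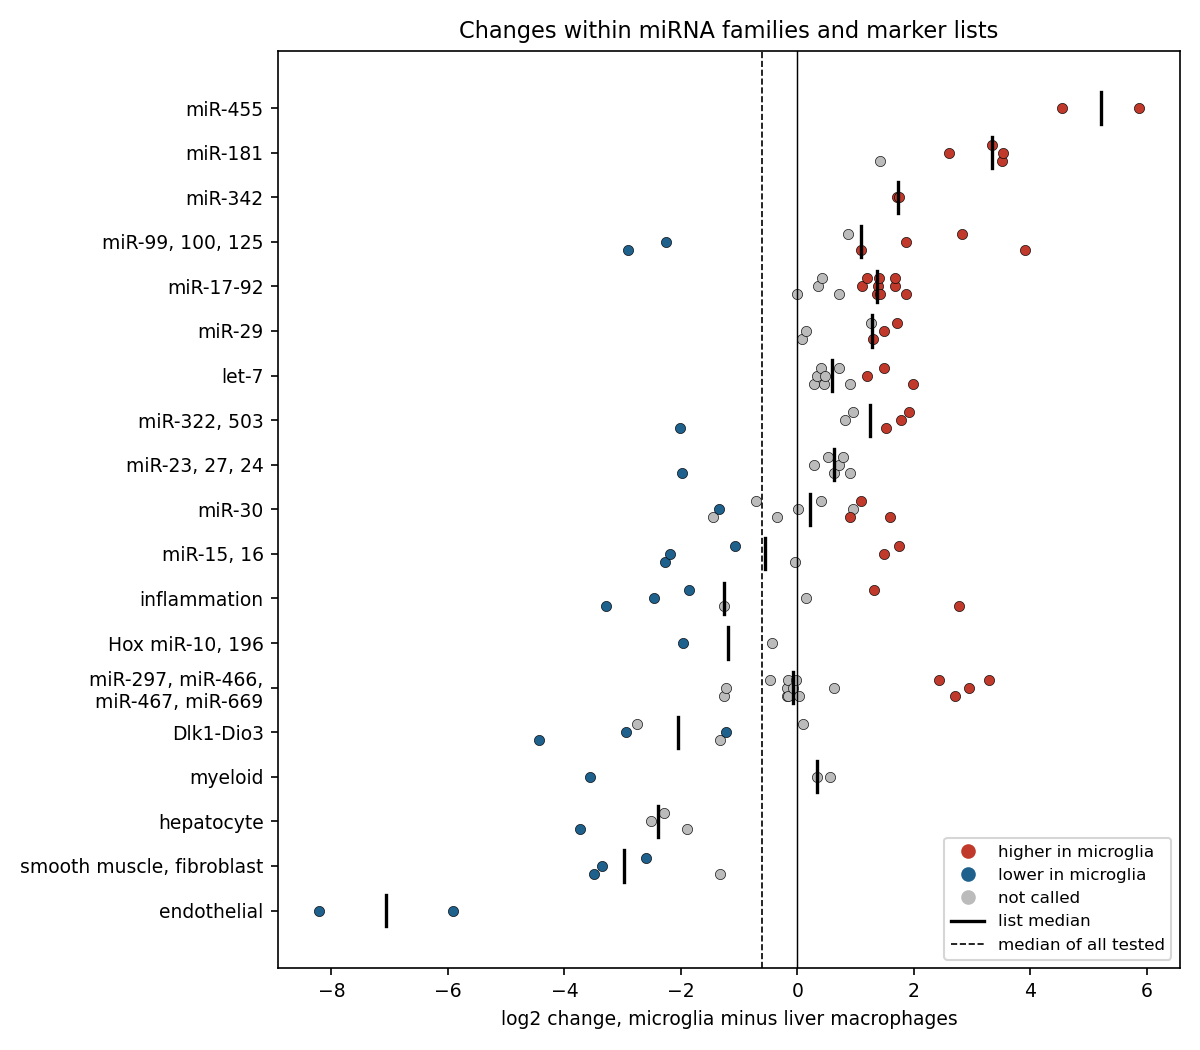
Log2 change, microglia minus liver macrophages, of each tested member of 19 families and marker lists, coloured by limma's call, with a bar at the list's median and a dashed line at -0.60, the median of all 382 tested miRNAs. The 2 arms of miR-455 lie at 4.55 and 5.86, the miR-181 members from 1.42 to 3.53, and the endothelial pair at -8.21 and -5.92.

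The 2 arms of a hairpin come from the same precursor. Their ratio within an array does not depend on how the array is scaled, unless an arm lies at the floor. On liver replicate 1, let-7d-3p and miR-674-5p lay there. The arms are read by different probes, so only the difference in this ratio between groups is compared, not which arm is more abundant. Of 26 hairpins with both arms detected on all 4 arrays, 6 differed in arm balance between microglia and liver macrophages (23.1%, limma on log2 5p minus log2 3p), and 10 at an unadjusted p under 0.05. For 17 of the 26 the arms changed in the same direction.

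miR-328 differed most. Its log2 5p minus log2 3p signal was 0.83 and 0.42 on the microglia arrays, against 4.62 and 5.56 on the liver arrays and 4.40 and 3.72 on the colon arrays, a difference of -4.46 between microglia and liver (SE 0.41, adjusted p = 0.000304). Each arm passed on its own in opposite directions: miR-328-5p stood at 6.27 and 5.86 in microglia, against 8.17 and 8.83 in liver macrophages, and miR-328-3p at 5.43 and 5.43, against 3.54 and 3.28. miR-125a turned the other way. Its balance was 2.66 and 2.51 in microglia, against -0.45 and -1.91 in liver macrophages and 1.15 and 1.43 in colon macrophages (difference 3.76, SE 0.47, limma adjusted p = 0.0011). This came with the 3p arm lower by 2.91 and the 5p arm changed by 0.86. For miR-21a the balance was 6.74 and 6.65 in microglia, against 8.86 and 9.73 in liver macrophages (difference -2.60, limma adjusted p = 0.0011). The 3 kept their call without each array in turn.

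The other 3 hairpins were miR-652 (difference -1.5, limma adjusted p = 0.00796), miR-574 (-1.64, limma adjusted p = 0.0273) and miR-483 (-1.38, limma adjusted p = 0.0273). None of them passed when either microglia array was left out, nor did miR-574 and miR-483 without liver replicate 1 (limma adjusted p = 0.092 and 0.117), and for none did a single arm pass on its own. The hairpin that differed least was miR-342, with -6.41 on both microglia arrays, against -6.36 and -6.53 on the liver arrays (difference 0.03, SE 0.26, limma adjusted p = 0.905). A further 3 hairpins had arms called in opposite directions although 1 arm was not detected on every array. They were miR-150 (5p -6.39 and 3p 3.32), miR-99b (5p 1.10 and 3p -2.25) and miR-664 (5p -1.20 and 3p 1.69).

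**Figure D5:**
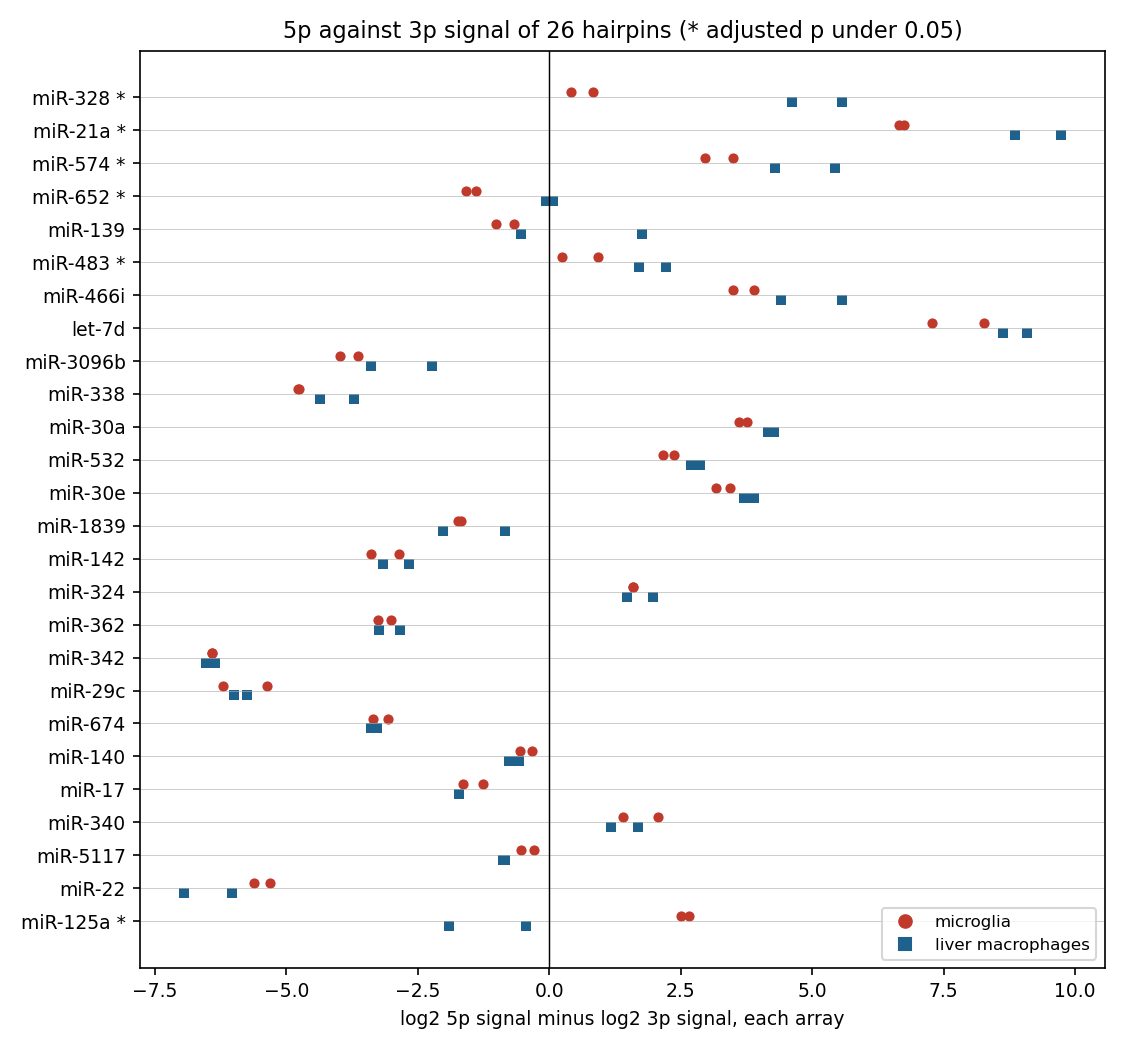
Log2 5p signal minus log2 3p signal on each of the 2 microglia and 2 liver arrays for 26 hairpins, ordered by the difference between the groups, with an asterisk at an adjusted p under 0.05. miR-328 at the top lies at 0.83 and 0.42 for microglia, against 4.62 and 5.56 for liver macrophages, and miR-125a at the bottom lies the other way.

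Among the clusters of neighbouring hairpins, that of miR-99b, let-7e and miR-125a in Spaca6 on chromosome 17 held 1 rise and 2 falls among 5 tested arms, from 1.10 for miR-99b-5p to -2.91 for miR-125a-3p. Both falls were 3p arms. The list of miR-99, miR-100 and miR-125 as a whole had 4 of 7 higher and 2 lower, with a median of 1.10. With no scaling and on control probes 2 were higher. Of all tested miRNAs 21.2% were higher and 31.7% lower. All 3 miRNAs with the seed ACCCGUA were higher, miR-99a-5p, miR-100-5p (1.87) and miR-99b-5p. Without microglia replicate 1 limma's adjusted p was 0.0653 for miR-100-5p and 0.126 for miR-99b-5p, and without microglia replicate 2 it was 0.0842 and 0.154. miR-221 and miR-222 on the X chromosome both fell, and miR-191-3p (1.75) and miR-425-5p (1.33), in Dalrd3 on chromosome 9, both rose.

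A further 3 rises are given for their host genes and were picked after their values were seen. miR-33-5p, in the sterol regulator gene Srebf2 on the same strand and known to repress cholesterol export, stood at 3.21 and 3.12 in microglia, was undetected in liver macrophages and stood at 3.38 and 3.79 in colon macrophages (change 1.52, limma adjusted p = 0.00838). miR-103-3p and miR-107-3p, in the pantothenate kinase genes Pank2, Pank3 and Pank1, rose by 1.70 and 1.19.

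Of the 40 miRNAs named by rule, 23 kept their call in every alternative run, 38 under every other scaling and 24 without each array in turn. The 8 rises measured on all 4 arrays that did so in every alternative were miR-125b-5p, miR-181a-5p, miR-181b-5p, miR-326-3p, miR-345-5p, miR-455-3p, miR-744-5p and miR-99a-5p, and the 4 such falls were miR-122-5p, miR-223-3p, miR-370-3p and miR-5105. The 40 were picked from these same data for the size of their change or bound, so their share does not describe all 202 calls. Of all 202, the other scalings also called from 151 on control probes to 189 after median scaling. The comparisons with colon macrophages share arrays with that of microglia and liver macrophages. In microglia minus colon macrophages 175 of 379 miRNAs passed (46.2%). In liver minus colon macrophages 4 of the 24 named miRNAs measured on all 4 arrays passed, miR-99a-5p, miR-326-3p, miR-146b-5p and miR-122-5p, and the remaining 20 did not pass, which does not show that their levels were equal.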

How the data were processed

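Levels were measured on 6 one-colour Agilent miRNA arrays from 100 ng of total RNA. The deposited tables hold, per the file headers, a total gene signal (a linear intensity), its error and a detection flag per miRNA, with 0.1 for undetected miRNAs. They were made with Agilent Feature Extraction 9.1, per the submitters' processing notes. The authors' value table of 595 miRNAs, on a log2 scale from its values, served as an alternative, and how it was normalized is unstated.

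Signals were scaled to the array's 75th percentile over 248 miRNAs that all 6 arrays detected, floored at 3.12 scaled units, the median of the arrays' lowest detected signals, and log2-transformed. limma 3.58.1 (R 4.3.3) fitted 3 group means over 6 arrays (3 residual and 2.2 prior degrees of freedom, moderated over the 414 miRNAs tested in any comparison), 2-sided, with Benjamini-Hochberg adjustment over the 382 tested and a threshold of 0.05. Adjusted p-values are limma's. A group at the floor has an SD of 0, which lowers a miRNA's pooled spread. Bounds ("at least") set the brighter group's mean against, for each dim array, the higher of the floor and its lowest detected signal. The model was run on simulated data without a floor or undetected miRNAs, which cannot check calls that rest on the floor.

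Named were the 12 largest changes per direction among called miRNAs detected on all 4 arrays, the 8 largest bounds per direction, members of 29 lists, and called arm balances. Members and lists were chosen with earlier results of these data known. Across the lists 75 of 142 tested members were called, close to the 52.9% called among all tested miRNAs. Replicate numbers come from the titles and did not pair the samples. Alternatives covered scaling, value source, filter, floor, samples, replicate block and leaving out each array. RefSeq matched 309 of the 382 by name or synonym. Host genes are those whose span holds the hairpin.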

Additional observations from a re-analysis of the deposited data

How the results depend on the processing

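Against 202 calls (81 higher, 121 lower), the test without a detection filter called 93 (35 and 58), and with a floor 4 times as high 134 (53 higher). Over only the miRNAs detected on all 4 arrays, of which fewer were tested, 71 were lower. The count of higher miRNAs was 124 after median scaling, 36 with no scaling and 34 on control probes. With each array left out in turn, calls numbered 121 to 228, higher ones 46 to 94 and lower ones 66 to 134. Replicate numbers correlated by 0.055 between microglia and liver deviations, and with a replicate block 191 were called (68 higher, 123 lower). The arm balance test gave 11 calls with the replicate block against 6, and 3 to 11 with an array left out. The direction turned for miR-30b-3p after quantile normalization (0.13) and, without liver replicate 1, for miR-29c-3p (-0.34) and miR-338-3p (-0.52), which were at 0.49 and 0.58 without liver replicate 2. The cause was not tested. The difference in detected miRNAs and the arm balances under the remaining settings kept their direction. The normexp correction and a slide or scan block were not run, because the tables hold no such columns. Scaling on the 75th percentile over all miRNAs was not run, because on microglia replicate 1 that percentile is the placeholder 0.1. Precision is limited by 2 arrays a group and, for dim miRNAs, by the floor.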
